A study of Mus musculus with 32 samples.

Results

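CC chemokines are small secreted proteins that draw leukocytes towards their source, and 7 genes that encode them are described here in mouse macrophage lines: Ccl2, Ccl7, Ccl12, Ccl3, Ccl4, Ccl6 and Ccl9. Each was read through a probe set that the array's annotation assigns to that gene alone. A gene with several such probe sets would have been read through the one of highest mean over all 32 arrays, but each of the 7 had 1. They are 7 of the 19938 genes measured in this way.

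CC chemokines act on G-protein-coupled receptors of the CCR family on the surface of leukocytes. The products of Ccl2, Ccl7 and Ccl12 are monocyte chemoattractant proteins that bind CCR2, the receptor that brings monocytes out of the bone marrow and into inflamed tissue. Those of Ccl3 and Ccl4 are the macrophage inflammatory proteins MIP-1α and MIP-1β, of which MIP-1α binds CCR1. Ccl6 and Ccl9 encode rodent chemokines that bind CCR1 and that myeloid cells make without an inflammatory stimulus. CSF-1, the growth factor on which macrophages depend, is a known inducer of Ccl2 in macrophages.

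RNA came from 4 lines, all on a background named M-/- in the labels, that carry different CSF-1 receptors (CSF-1R). The lines are called here by the receptor in their label, Y721F, 3AB, WT and 3ABY721. The receptors of Y721F and 3AB lack Tyr-721, and those of WT and 3ABY721 have it in phosphorylated form, according to the design text. In the time course, Y721F and WT cells were starved of CSF-1 overnight and given CSF-1 for 0, 20, 60 or 180 min. In the steady-state experiment, cells of the 4 lines were grown constantly in CSF-1 or starved of it. Each of the 16 groups has 2 arrays, numbered I and II and called biological replicates in the design text. The medium was α-MEM with serum of newborn calves, and human CSF-1 was used at 120 ng/mL, per the labels' protocols. Every receptor is carried by a separate line, so receptor and line cannot be told apart, and the labels do not say how many clones a line holds.

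Values are log2 signals as deposited, and a difference of 1 on this scale is a doubling. A gene was called where limma's Benjamini-Hochberg adjusted p was under 0.05 and the fold above 1.5. Words of direction (rose, fell, higher, lower) applied to a single gene mean such a call. The levels of different genes come from different probes and are not compared. Array medians ran from 5.97 to 6.22, and Pearson r across genes for the 2 arrays of a group lay between 0.986 and 0.996. The 10 macrophage markers were all measured, and each was above the 20th percentile of signal in all 32 arrays. Fcgr1 (lowest value 5.99) was above the median signal in 31 arrays and Mertk (lowest value 5.43) in 30, and the other macrophage markers in all 32. Csf1r, which is among them, read 12.7 to 13.4. It encodes the receptor by which the lines are named, so its level cannot show cell type here. Whether its signal came from the receptor of the label was not tested. Of the markers of other cell types, 6 of 7 for fibroblasts, 6 of 6 for dendritic cells, 3 of 8 for granulocytes and mast cells and 1 of 6 measured for lymphocytes were above the 20th percentile of signal (4.46) in all 32 arrays. The fibroblast genes Col1a1, Col1a2 and Col3a1 were also above the median signal in all 32, and Klrb1c, Fcer1a and Lum were above the 20th percentile in 0. In bulk RNA of this kind, fewer cells of a type and less RNA per cell cannot be told apart.

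The 7 genes lie on chromosome 11 in RefSeq's mouse assembly GRCm38.p6, in a pair of clusters; the build of the array's own annotation is not given in the sources used here. Ccl2 (chr11:82035577-82037452) and Ccl7 (chr11:82045712-82047525) are neighbours 8259 bases apart. Ccl11, an eosinophil chemoattractant gene, starts 10306 bases beyond Ccl7, Ccl12 (chr11:82101845-82103399) lies 38889 bases beyond Ccl11, and Ccl8 follows Ccl12 at 11785 bases. In the second cluster, Ccl9 (chr11:83572917-83578636) and Ccl6 (chr11:83587886-83593087) are 9249 bases apart, and Ccl3 (chr11:83647843-83649378) begins 54755 bases past Ccl6. The annotated Ccl4 gene (chr11:83648624-83664683) overlaps Ccl3 by 755 bases. Genes within each group are similar in sequence, and whether their probes also bind the other members' transcripts was not tested, so that values of the near copies are uncertain to that extent.

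RefSeq promoter sequences of GRCm38.p6 matched 4 of the 7 genes, Ccl12, Ccl3, Ccl6 and Ccl9, and all 4 are shown. Each line gives the 250 bases before the annotated start, 5′ to 3′ along the gene's strand, with motif matches in capitals.
Ccl12 (chr11:82101595-82101844, plus strand): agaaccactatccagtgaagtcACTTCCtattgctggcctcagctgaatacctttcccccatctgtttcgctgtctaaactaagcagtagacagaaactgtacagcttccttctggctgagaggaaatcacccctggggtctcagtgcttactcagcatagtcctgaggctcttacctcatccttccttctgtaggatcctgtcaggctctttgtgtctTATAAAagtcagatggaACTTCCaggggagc
Ccl3 (chr11:83649379-83649628, minus strand): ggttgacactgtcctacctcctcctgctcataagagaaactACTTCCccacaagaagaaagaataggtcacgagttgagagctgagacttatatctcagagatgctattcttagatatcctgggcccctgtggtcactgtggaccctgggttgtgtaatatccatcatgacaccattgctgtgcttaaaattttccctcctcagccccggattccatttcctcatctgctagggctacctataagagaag
Ccl6 (chr11:83593088-83593337, minus strand): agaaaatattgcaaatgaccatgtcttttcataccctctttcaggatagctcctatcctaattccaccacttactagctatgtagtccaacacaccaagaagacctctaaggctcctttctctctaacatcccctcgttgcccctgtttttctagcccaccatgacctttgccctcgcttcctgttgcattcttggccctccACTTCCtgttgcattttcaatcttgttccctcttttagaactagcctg
Ccl9 (chr11:83578637-83578886, minus strand): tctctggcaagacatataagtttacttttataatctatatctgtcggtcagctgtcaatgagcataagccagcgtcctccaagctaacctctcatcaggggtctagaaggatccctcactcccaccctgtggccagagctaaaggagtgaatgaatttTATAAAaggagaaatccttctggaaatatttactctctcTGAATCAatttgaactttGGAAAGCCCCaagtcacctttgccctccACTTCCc
The motifs searched on both strands were the ETS core GGAAGT, the AP-1-like letters TGANTCA, the C/EBP site TTGCNNAA and the NF-κB site. TATAAA was searched on the gene's strand, and there were 0 overlaps between matches. The ETS core was found in all 4 promoters, always on the opposite strand (ACTTCC as printed): in Ccl12 at 228 to 223 and 14 to 9 bases before the start, in Ccl3 at 209 to 204, in Ccl6 at 48 to 43 and in Ccl9 at 7 to 2. It is also in 19.7% of the 32851 RefSeq promoters cut to the same window. Ccl9 held TGAATCA, a match to the AP-1-like letters, at 53 to 47 bases before the start. Those letters, with any base in the middle, were found in 6.75% of promoters. Ccl9 also held an NF-κB site at 35 to 26 (7.25%) and TATAAA at 92 to 87 (7.59%). Ccl12 held TATAAA at 31 to 26, and the C/EBP letters, present in 9.56% of promoters, were in none of the 4 windows. The closest local match between Ccl6 and Ccl9 covered 17 aligned bases with 16 identical, and held the ETS core of both, 59 to 43 bases before the start in Ccl6 and 18 to 2 in Ccl9. These matches describe letters in the windows only, and binding was not measured.

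The time course addresses how starved cells answer CSF-1. Ccl2 rose within 20 min in WT and stayed at that level to 180 min, and Ccl7 showed differences as large with a wider spread between the arrays. In WT cells Ccl2 read 8.92 and 8.32 at 0 min, 12.76 and 11.68 at 20 min, 12.81 and 11.56 at 60 min and 12.68 and 12.31 at 180 min. Every array with CSF-1 lay above both arrays without it. The difference from 0 min was 3.60 (SE 0.52) at 20 min, a 12.1-fold change with adjusted p = 0.0168, then 3.56 (SE 0.52, adjusted p = 0.00983) at 60 min and 3.88 (SE 0.52, 14.7-fold, adjusted p = 0.00829) at 180 min. Ccl2 was the 1 member of 7 called at each of the 3 times, where 0.155% of all genes rose at 20 min, 0.547% at 60 min and 1.38% at 180 min. With 1 array left out, the call was lost for 3 of the 4 arrays at 20 min (0.103 without 0 min I, 0.199 without 0 min II, 0.201 without 20 min I). The same held at 60 min (0.0603 without 0 min I, 0.0748 without 0 min II, 0.104 without 60 min I), and at 180 min for 2 of 4 (0.0663 without 0 min I, 0.0817 without 180 min II).

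Ccl7 in WT cells read 8.17 and 7.14 at 0 min, 12.79 and 10.47 at 20 min, 12.72 and 10.52 at 60 min and 12.57 and 11.47 at 180 min. The arrays with and without CSF-1 did not overlap, but array I was above array II by 1.03 to 2.32 in each of the 8 time course groups, Y721F included. The differences from 0 min were 3.98 (SE 1.02, adjusted p = 0.629), 3.96 (SE 1.02, adjusted p = 0.14) and 4.37 (SE 1.02, adjusted p = 0.0507), none of them called. Without 60 min II the 60 min difference was 5.07 with adjusted p = 0.0405. Arrays of the same number deviated together within a line, so the fit with the number as a block applies as well: there the SE was 0.30 and Ccl7 rose at all 3 times (adjusted p = 3.42e-05 at 20 min, 4.84e-05 at 60 min and 3.31e-05 at 180 min). Taken by number, the Ccl7 difference was 4.62 in array I and 3.33 in array II at 20 min, 4.55 and 3.38 at 60 min and 4.40 and 4.33 at 180 min.

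Ccl12, the third CCR2 ligand gene of the group, differed between the arrays. It read 4.72 and 4.68 in WT cells at 0 min, 8.63 and 5.19 at 20 min, 8.27 and 5.35 at 60 min and 7.35 and 5.08 at 180 min. Array I differed from its 0 min value by 3.91, 3.55 and 2.63 at the 3 times and array II by 0.51, 0.67 and 0.40. Both arrays with CSF-1 were above both without it, but the mean differences of 2.21, 2.11 and 1.52 had an SE of 1.3 and were not called, nor were they with the block (adjusted p = 0.554, 0.0995 and 0.214). In Y721F cells the same split was seen: array I differed by 2.33, 3.55 and 2.47 and array II by 0.42, 0.52 and 0.37. One Y721F array at 0 min, at 4.37, was the 1 Ccl12 value of 32 under the 20th percentile of signal. The flanking genes Ccl11 and Ccl8 stayed within narrow ranges, with group means of 5.82 to 6.12 for Ccl11 and 3.90 to 4.31 for Ccl8 over all 16 groups.

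In Y721F cells Ccl2 read 8.63 and 7.61 at 0 min, 11.82 and 10.99 at 20 min, 11.69 and 10.68 at 60 min and 11.34 and 11.17 at 180 min. All arrays with CSF-1 lay above those without. Ccl2 measured 3.29 (SE 0.52, adjusted p = 0.053) at 20 min, where 0 of 7 members and 0.0752% of all genes were called up. It rose at 60 min by 3.06 (SE 0.52, adjusted p = 0.048), the 1 member called where 0.16% of all genes rose, and at 180 min by 3.13 (SE 0.52, adjusted p = 0.0421), again the 1 member, where 0.171% rose. The call at 60 min was lost without 0 min I, 0 min II or 60 min I (adjusted p = 0.14, 0.278 and 0.766), and that at 180 min without any 1 of the 4 arrays (0.0879 to 0.424). With the number as a block both Ccl2 and Ccl7 rose at each time, Ccl2 with adjusted p = 3.25e-05, 9.36e-05 and 9.79e-05. Up calls then made up 0.196%, 0.687% and 2.65% of all genes.

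Ccl7 in Y721F cells read 7.61 and 6.36 at 0 min, 11.27 and 9.42 at 20 min, 11.11 and 8.99 at 60 min and 10.50 and 9.10 at 180 min. Its differences from 0 min were 3.36, 3.06 and 2.81 (SE 1.02), not called without the block (adjusted p = 0.662, 0.607 and 0.241) and called with it (0.000264, 0.000425 and 0.0013). Array I again lay above array II at each time.

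**Figure D1:**
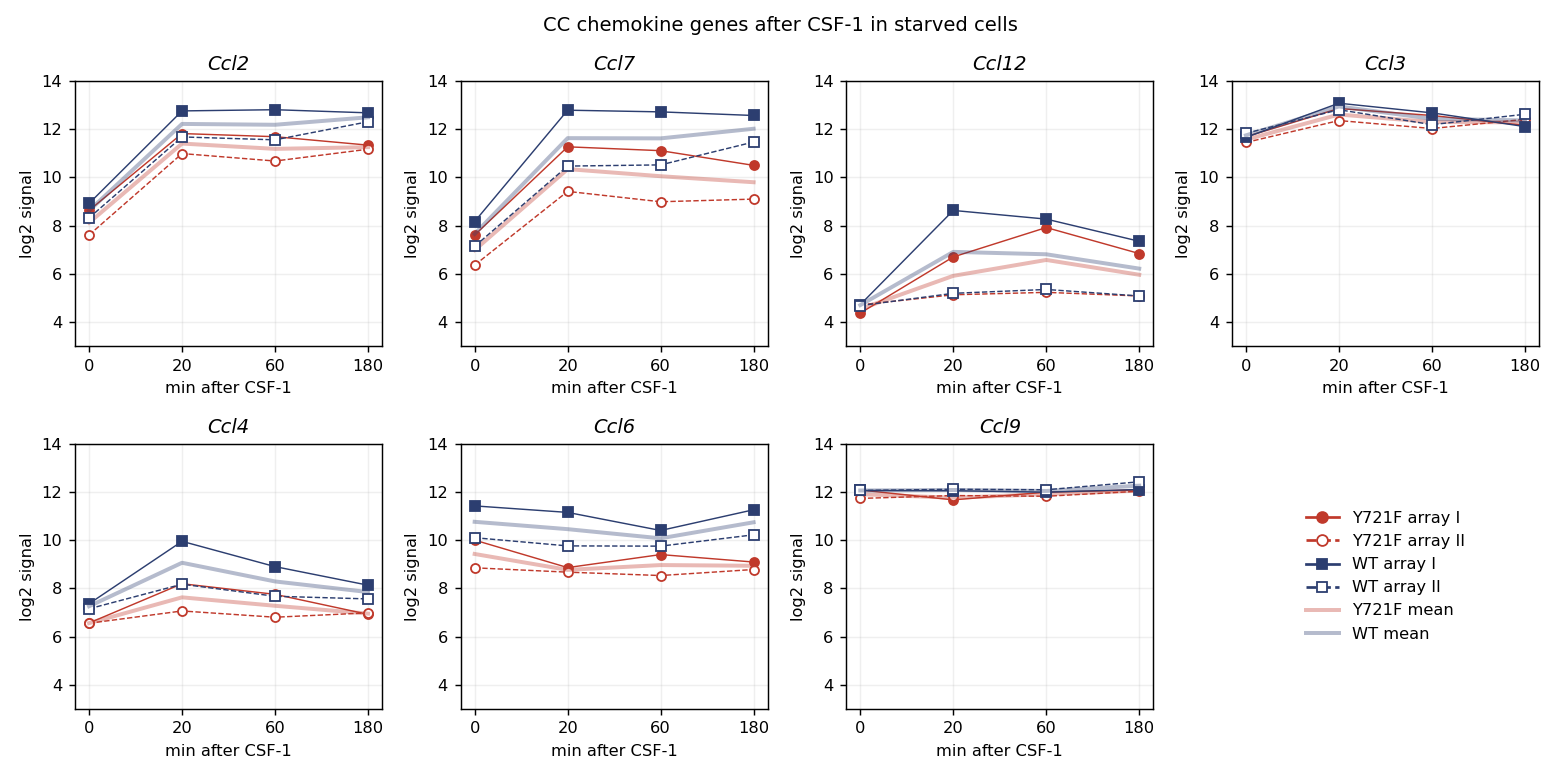
Log2 signal of the 7 CC chemokine genes (vertical axes) against minutes of CSF-1 (horizontal axes, 0, 20, 60 and 180 at equal spacing) in Y721F and WT cells, with a point per array, thin lines joining arrays of 1 number and a thick line through the mean of the 2 arrays. Ccl2 and Ccl7 lie above their 0 min values at every later time in both lines, Ccl12 separates into an upper and a lower array, and Ccl9 stays between 11.67 and 12.42.

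The macrophage inflammatory protein genes showed smaller differences, with the largest at 20 min in both lines. Ccl3 in WT cells read 11.66 and 11.83 at 0 min, 13.08 and 12.81 at 20 min, 12.68 and 12.19 at 60 min and 12.11 and 12.62 at 180 min. The arrays at each time with CSF-1 lay above both at 0 min. The differences were 1.20 (SE 0.25, adjusted p = 0.192), 0.69 and 0.62. Ccl4 in WT cells read 7.36 and 7.15 at 0 min, 9.95 and 8.17 at 20 min, 8.90 and 7.67 at 60 min and 8.13 and 7.56 at 180 min, with differences of 1.80 (SE 0.57, adjusted p = 1), 1.03 and 0.59. Neither gene was called without the block. With it both rose at 20 min in WT (adjusted p = 0.0426 for Ccl3 and 0.0492 for Ccl4), so that 4 of 7 members were called where 0.406% of all genes were, and neither was called at 60 or 180 min, where the 2 members called were Ccl2 and Ccl7 (2.76% and 4.63% of all genes).

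In Y721F cells Ccl3 read 11.69 and 11.45 at 0 min, 12.86 and 12.36 at 20 min, 12.57 and 12.03 at 60 min and 12.16 and 12.41 at 180 min, and its differences of 1.04, 0.73 and 0.71 were not called in either fit. Ccl4 read 6.56 and 6.55 at 0 min, 8.19 and 7.06 at 20 min, 7.75 and 6.80 at 60 min and 6.92 and 6.98 at 180 min in that line, with differences of 1.07, 0.72 and 0.39, also not called. At 20 min 5 of the 7 genes (Ccl2, Ccl7, Ccl12, Ccl3 and Ccl4) had both arrays above both 0 min arrays in each line, a pattern that 19.7% of all genes showed in Y721F and 13.6% in WT.

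The CCR1 ligand genes Ccl6 and Ccl9 were not called at any time in either line. Ccl6 in WT cells read 11.42 and 10.10 at 0 min, 11.15 and 9.76 at 20 min, 10.40 and 9.75 at 60 min and 11.26 and 10.22 at 180 min, and its differences from 0 min were -0.30, -0.68 and -0.02. Its arrays with and without CSF-1 overlapped at each time, and array I was above array II by 0.19 to 1.39 in all 8 time course groups. In Y721F cells it read 10.00 and 8.85 at 0 min, 8.86 and 8.67 at 20 min, 9.40 and 8.53 at 60 min and 9.09 and 8.78 at 180 min. Ccl9 varied little: over all 32 arrays it ran from 11.67 to 12.54, and its differences from 0 min lay between -0.15 and 0.20. Over the 7 genes the median difference was 1.80 at 20 min, 1.03 at 60 min and 0.62 at 180 min in WT, against medians of 0, -0.01 and 0 over all genes, and 1.07, 0.73 and 0.71 in Y721F, against 0.02, -0.01 and -0.01.

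Neighbouring times were compared next. From 20 to 60 min and from 60 to 180 min 0 of 7 members were called in WT or Y721F, in either direction, where up calls were 0.0652% and 0.00502% of all genes in WT and 0.0301% and 0.00502% in Y721F. Down calls were 0.0502% and 0.0201% in WT and 0.0201% and 0.0251% in Y721F. At an unadjusted p under 0.05 limma gave 0 members in each of these 4 comparisons.

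Whether the lines differed in these responses was tested as a difference of differences, Y721F minus WT. For Ccl2 it was -0.31 at 20 min (95% interval -1.92 to 1.29), -0.50 at 60 min (-2.10 to 1.10) and -0.74 at 180 min (-2.34 to 0.86). For Ccl7 it was -0.62 (-3.79 to 2.56), -0.90 (-4.07 to 2.27) and -1.55 (-4.72 to 1.62). No member and 0% of all genes were called by limma at any of the 3 times, and 0 members had an unadjusted p under 0.05. With the number as a block the SE was 0.31 for Ccl2 and 0.42 for Ccl7, and again 0 members were called. For Ccl12 the estimates were -0.84, -0.07 and -0.10, for Ccl3 -0.16, 0.04 and 0.10, and for Ccl4 -0.73, -0.31 and -0.19.

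At 0 min, Y721F against WT, 0 of 7 members were called, where 0.421% of all genes were higher and 0.306% lower in Y721F. Ccl6 measured -1.33 (SE 0.57, adjusted p = 0.477) and was the 1 member with an unadjusted p under 0.05, Ccl4 -0.70, Ccl7 -0.67 and Ccl2 -0.50. With the number as a block common to both lines, limma called Ccl6 (adjusted p = 0.0238). The Ccl6 arrays, 10.00 and 8.85 in Y721F against 11.42 and 10.10 in WT, did not overlap.

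The steady-state experiment addresses the level that cells hold when CSF-1 is always present. Ccl2 and Ccl7 rose in all 4 lines grown in CSF-1 against the same line starved. Ccl2 read 12.27 and 12.28 in grown WT cells, against 8.71 and 9.81 in starved ones, and rose by 3.01 (SE 0.35, 8.08-fold, adjusted p = 0.000236). In Y721F it read 10.63 and 9.59 grown against 6.41 and 6.82 starved, a rise of 3.50 (SE 0.35, 11.3-fold, adjusted p = 6.26e-05). In 3ABY721 it read 11.63 and 12.19 grown against 8.68 and 9.03 starved, a rise of 3.05 (SE 0.35, adjusted p = 0.000502). In 3AB it read 11.62 and 11.18 grown against 8.98 and 8.92 starved, a rise of 2.45 (SE 0.35, adjusted p = 0.00397). The grown arrays thus lay above the starved ones in every line. The 3AB call was lost without starved I, starved II or grown I (adjusted p = 0.0615, 0.0631 and 0.0765).

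Ccl7 read 12.12 and 12.04 in grown WT cells, against 8.25 and 8.90 in starved ones, and rose by 3.50 (SE 0.30, 11.4-fold, adjusted p = 2.43e-05). The rise was 3.94 (15.3-fold, adjusted p = 1.04e-05) in 3ABY721, with 11.18 and 11.86 grown against 7.41 and 7.75 starved. It was 3.06 (8.34-fold, adjusted p = 0.00056) in 3AB, with 11.02 and 10.25 grown against 7.62 and 7.53 starved. In Y721F Ccl7 rose by 1.82 (3.54-fold, adjusted p = 0.0027), with 8.57 and 8.14 grown against 6.20 and 6.86 starved. The grown Y721F arrays thus overlapped with the starved arrays of WT. In 1 fit over all 32 arrays, where the spread of the time course enters, the Ccl7 call was lost in Y721F (adjusted p = 0.187) and in 3AB (adjusted p = 0.11). The growth effect in Y721F minus that in WT was -1.68 (95% interval -2.58 to -0.78), which was not called over all genes (adjusted p = 0.24); without Y721F grown I it was -1.89 and called (adjusted p = 0.0428).

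Ccl12 read 11.01 and 8.80 in grown WT cells, against 6.36 and 6.82 in starved ones, and rose by 3.32 (SE 0.46, 9.95-fold, adjusted p = 0.000959). In 1 fit over all 32 arrays the Ccl12 call in WT was lost (adjusted p = 0.0679). In Y721F it read 5.09 and 5.05 grown against 5.84 and 5.24 starved, a difference of -0.47 (SE 0.46, adjusted p = 0.603). The grown Y721F arrays were below the starved ones, and the grown WT arrays above. The difference of the growth effects, Y721F minus WT, was -3.79 (SE 0.65, adjusted p = 0.0442) and was called, the 1 member of 7, where 0.0752% of all genes were called up and 0.015% down. That call was lost without any 1 of 5 arrays: WT starved I or II, Y721F starved I or II, or Y721F grown II (adjusted p = 0.23, 0.077, 0.158, 0.107 and 0.205). It was also lost after quantile normalization (0.0636), in 1 fit over all 32 arrays (0.297) and with the replicate block (0.0975). In 3ABY721 Ccl12 read 7.70 and 7.91 grown against 6.28 and 6.03 starved (1.65, adjusted p = 0.105), and in 3AB 7.22 and 7.09 against 6.08 and 5.81 (1.21, adjusted p = 0.317). The growth effects of 3AB and 3ABY721 differed by -0.44 for Ccl12 and -0.88 for Ccl7 (95% interval -1.78 to 0.02), with 0 members called, 0 at an unadjusted p under 0.05, and 0% of all genes up and 0.00502% down.

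The macrophage inflammatory protein genes Ccl3 and Ccl4 rose in grown Y721F, but the growth effects of Y721F and WT differed by 0.53 for Ccl3 and 0.45 for Ccl4, which was not called, so that a difference from WT is not shown. Ccl3 read 12.43 and 12.39 in grown Y721F cells, against 11.60 and 11.33 in starved ones, and rose by 0.95 (SE 0.24, adjusted p = 0.0349). Ccl4 read 8.15 and 8.48 grown against 6.76 and 7.06 starved in that line, and rose by 1.41 (SE 0.31, adjusted p = 0.0166). These calls were not stable when 1 array was left out: Ccl3 lost its call without any 1 of the 4, and Ccl4 without starved I, starved II or grown II. The differences themselves stayed between 0.81 and 1.08 for Ccl3 and between 1.24 and 1.57 for Ccl4. In WT Ccl4 read 9.45 and 10.33 grown against 8.46 and 9.40 starved (0.96, adjusted p = 0.0871), and it was called without starved II (1.43, adjusted p = 0.0321). Ccl3 measured 0.41 in WT, 0.79 in 3ABY721 and 0.38 in 3AB, and Ccl4 1.06 in 3ABY721 and 0.42 in 3AB, none of them called.

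Ccl6 was lower in grown than in starved Y721F cells. It read 8.50 and 8.43 in grown Y721F cells, against 9.43 and 10.09 in starved ones, and fell by 1.29 (SE 0.35, adjusted p = 0.0415), a call lost without starved II, grown I or grown II (adjusted p = 0.34, 0.0976 and 0.138). In WT it read 10.04 and 11.59 grown against 11.59 and 12.06 starved, a difference of -1.01 (adjusted p = 0.106). Without WT grown II it was -1.79 and called (adjusted p = 0.000581). Ccl6 measured -0.23 in 3ABY721 and -0.55 in 3AB, and Ccl9 between -0.29 and -0.03 in the 4 lines, none of them called.

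Counted over the 7 genes, 3 rose in WT (Ccl2, Ccl7 and Ccl12), where 2.3% of all genes rose. In Y721F 4 rose and 1 fell, where 3.48% of all genes rose and 1.46% fell. In 3ABY721 2 rose (0.742% of all genes) and in 3AB 2 rose (0.431%). Leaving out 1 array gave 2 or 3 calls in place of 5 in Y721F, 3 or 4 in WT, 2 in 3ABY721 and 1 or 2 in 3AB. The median difference over the 7 was 0.96 in WT, 0.95 in Y721F, 1.06 in 3ABY721 and 0.42 in 3AB, against medians between -0.03 and 0 over all genes. Each line's macrophage markers moved as well, with 4 of 10 lower in grown WT cells, 5 in Y721F, 2 in 3ABY721 and 1 in 3AB and 0 higher in any. The share of all genes that fell is given here for Y721F only. The median difference over the 10 markers was -0.49 in WT, -0.63 in Y721F, -0.47 in 3ABY721 and -0.29 in 3AB, against the same medians over all genes. Their part in the results was not tested.

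**Figure D2:**
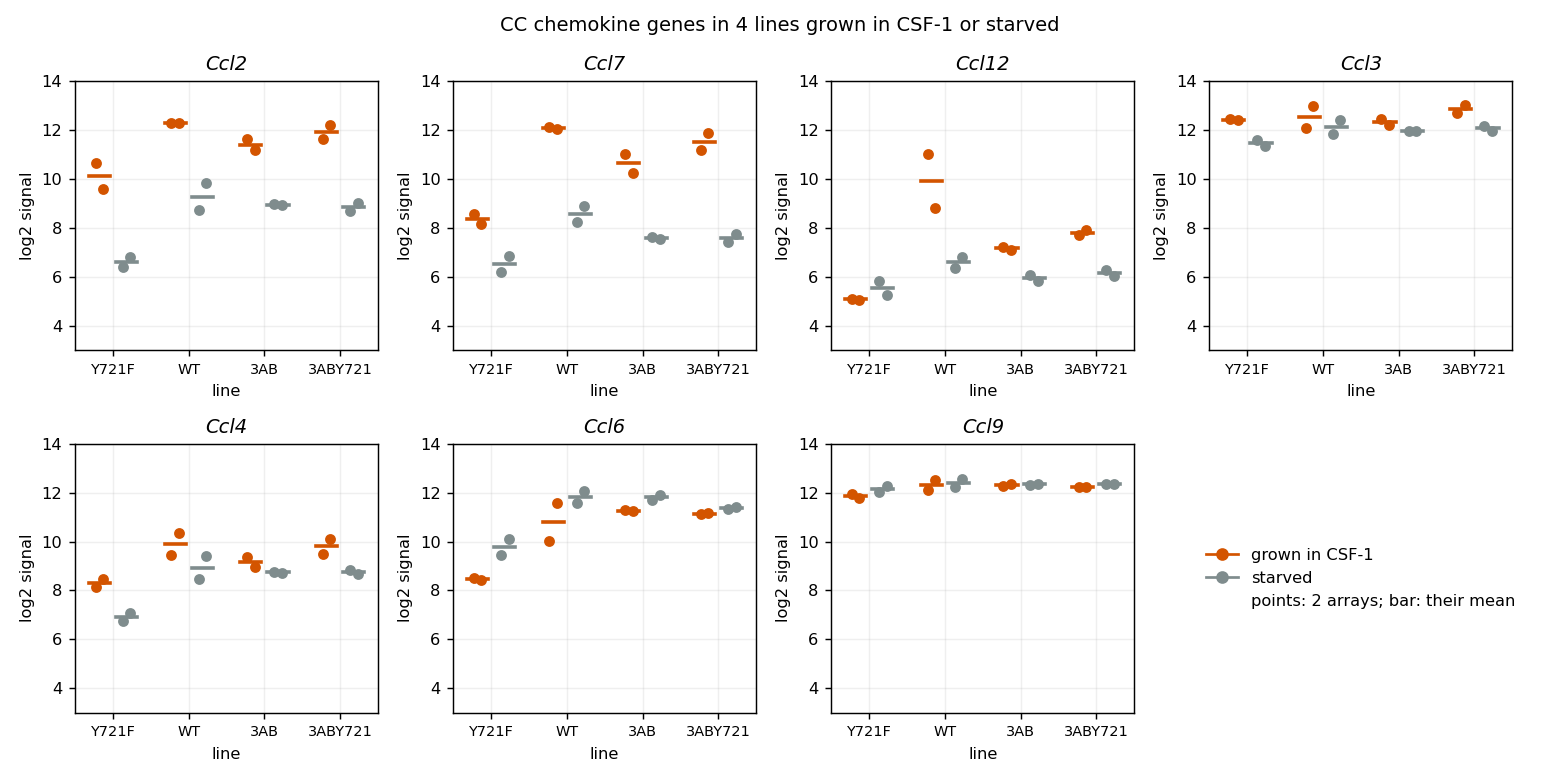
Log2 signal of the 7 CC chemokine genes in the 4 lines grown in CSF-1 (left of each pair) or starved (right of each pair), with a point per array and a bar at the mean of the 2 arrays. Grown arrays of Ccl2 and Ccl7 lie above the starved arrays in every line, and those of Ccl12 do so in all lines except Y721F.

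Comparing the lines with each other addresses what goes with Tyr-721, as far as 2 pairs of lines can show it. In the steady-state experiment most of the chemokine genes were lower in Y721F than in WT in both states. Grown in CSF-1, 5 of 7 were lower and 0 higher, where 4.94% of all genes were lower and 2.94% higher. Ccl12, at 5.09 and 5.05 in Y721F against 11.01 and 8.80 in WT, fell by 4.84 (SE 0.46, 28.5-fold lower, adjusted p = 1.01e-05). Ccl7, at 8.57 and 8.14 against 12.12 and 12.04, fell by 3.72 (SE 0.30, 13.2-fold lower, adjusted p = 2.43e-06). Ccl6, at 8.50 and 8.43 in Y721F against 10.04 and 11.59 in WT, was 5.1-fold lower (adjusted p = 0.000602), Ccl2 4.48-fold (adjusted p = 0.00108) and Ccl4 2.98-fold (adjusted p = 0.00536). For these 5 genes, and for Ccl9, no Y721F array reached a WT array. The share of all genes apart in this way is not given here. Ccl9 measured -0.46 (SE 0.16, adjusted p = 0.0784), called without WT grown I (-0.67, adjusted p = 0.0419), and Ccl3 -0.12 (adjusted p = 0.812).

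Starved, 4 of 7 were lower in Y721F than in WT and 0 higher, where 7.66% of all genes were lower and 3.47% higher. Ccl2, at 6.41 and 6.82 in Y721F against 8.71 and 9.81 in WT, fell by 2.64 (SE 0.35, 6.25-fold lower, adjusted p = 0.000172). Ccl6 fell by 2.07 (adjusted p = 0.00129), Ccl7 by 2.04 (adjusted p = 0.000435) and Ccl4 was lower at -2.02 (adjusted p = 0.000689), each with both Y721F arrays below both WT arrays. Ccl12 measured -1.05 (adjusted p = 0.128), Ccl3 -0.65 (adjusted p = 0.0815) and Ccl9 -0.22. The arrays of Ccl12 and Ccl3 were apart in the same direction, and the share of all genes apart in this way is not given here. At 0 min of the time course, where both lines were also starved, 0 of 7 were called without the block. There Ccl2 measured -0.50 (95% interval -1.63 to 0.63), Ccl7 -0.67, Ccl4 -0.70 and Ccl6 -1.33. The experiments were not compared by a test. In 1 fit over all 32 arrays the starved Ccl7 call was lost (adjusted p = 0.0764). Leaving out any 1 array left 4 called starved and 5 or 6 grown. The median over the 7 genes was -2.16 grown and -2.02 starved, against 0.05 and 0 over all genes.

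Macrophage markers moved with these differences. Their mean level was 10.2 in both grown Y721F arrays, against 11.6 and 11.7 in WT, and 11 to 11.2 starved, against 12 to 12.2 in WT. Of the 10, 5 were lower in Y721F grown and 5 starved, with 0 higher. Fcgr1, the high-affinity Fcγ receptor gene, fell by 5.15, Mertk by 2.78, Mpeg1 by 2.05 and Lyz2 by 1.54 in grown Y721F against WT. Of 7 fibroblast markers 1 was higher in Y721F, Pdgfra by 2.04 grown, and the mean of the 7 was 5.96 to 6.24 in grown Y721F and 5.74 to 5.76 in grown WT. The part of these markers in the chemokine results was not tested.

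Between 3AB and 3ABY721, limma called 0 of 7 genes in either state, and at an unadjusted p under 0.05 there were 2 grown (Ccl3 and Ccl7) and 0 starved. Grown in CSF-1, where 0.642% of all genes were lower and 0.542% higher in 3AB, Ccl7 measured -0.88 (SE 0.30, 95% interval -1.52 to -0.25, adjusted p = 0.236), with 11.02 and 10.25 in 3AB against 11.18 and 11.86 in 3ABY721. Ccl2 measured -0.51 (-1.25 to 0.23), Ccl12 -0.65 (-1.63 to 0.33), Ccl4 -0.66 (-1.33 to 0.01) and Ccl3 -0.53 (-1.05 to -0.01). Ccl6 measured 0.12 (-0.62 to 0.87) and Ccl9 0.10 (-0.24 to 0.43). Starved, where 0.371% of all genes were lower and 0.246% higher in 3AB, the differences lay between -0.21 for Ccl12 and 0.44 for Ccl6.

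The difference between these pairs, Y721F minus WT less 3AB minus 3ABY721, was tested directly in a contrast added after the data were seen. Grown, it was called for Ccl12 at -4.18 (SE 0.65, adjusted p = 0.00102), Ccl7 at -2.84 (SE 0.42, adjusted p = 0.000756) and Ccl6 at -2.47 (SE 0.49, adjusted p = 0.00589), 3 of 7 where 4.85% of all genes were lower and 3.14% higher. Ccl2 measured -1.65 (adjusted p = 0.0524), called without Y721F grown I (-2.17, adjusted p = 0.00874), and Ccl4 -0.91 (adjusted p = 0.221). Starved, it was called for Ccl2 at -2.74 (SE 0.49, adjusted p = 0.0031), Ccl6 at -2.51 (adjusted p = 0.00557), Ccl7 at -2.04 (adjusted p = 0.0077) and Ccl4 at -2.0 (adjusted p = 0.0108), 4 of 7 where 6.91% of all genes were lower and 3.25% higher. The Ccl4 call was lost without 3ABY721 starved II (adjusted p = 0.0524). In 1 fit over all 32 arrays the calls of Ccl7 (adjusted p = 0.12) and Ccl12 (0.0771) were lost grown, and those of Ccl4 (0.0637) and Ccl7 (0.247) starved. Macrophage markers differed between the pairs too, 5 of 10 lower grown (Fcgr1, Mertk, Mpeg1, Lyz2 and Adgre1) and 4 starved (Fcgr1, Mertk, Mpeg1 and Itgam).

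**Figure D3:**
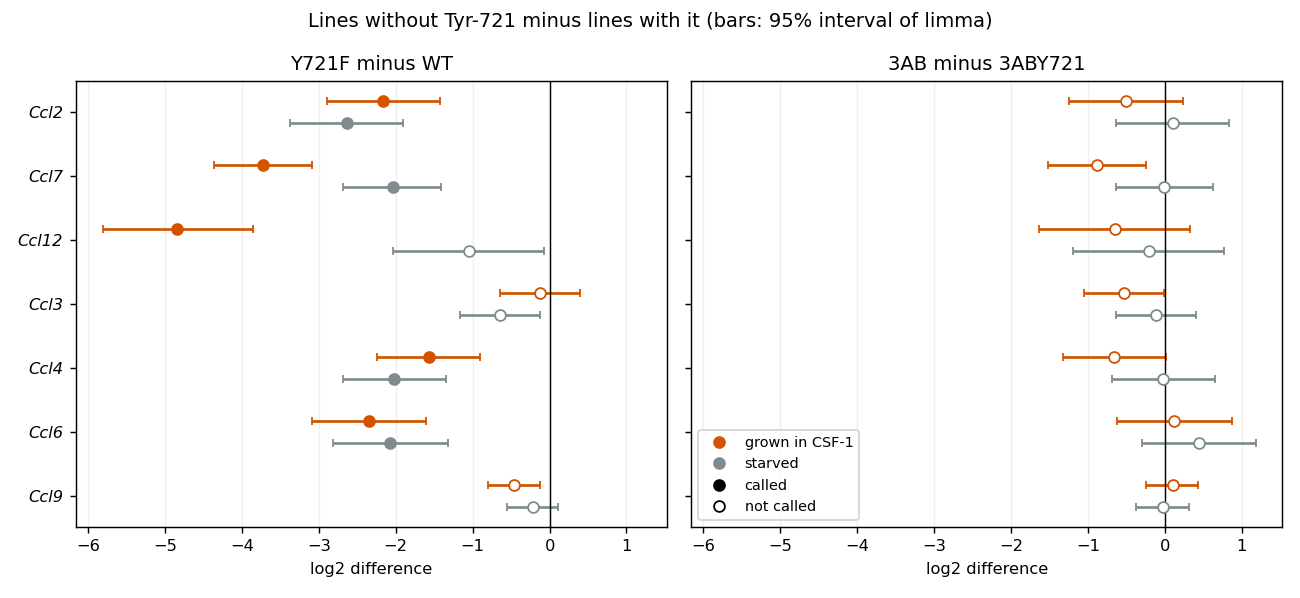
Log2 difference with its 95% interval (horizontal axis) for each of the 7 CC chemokine genes (vertical axis), for Y721F against WT and 3AB against 3ABY721, grown in CSF-1 and starved. Filled points were called and open points were not; the Y721F against WT points reach -4.84 for Ccl12 grown, and all 3AB against 3ABY721 points lie between -0.88 and 0.44.

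Ranked over the 16 groups, the mean level of Ccl2 was highest in WT at 180 min (12.5) and lowest in starved Y721F (6.62), and neighbours in that order overlapped in their arrays except in 3 places. The order of Ccl7 began with grown WT (12.08) and WT at 180, 20 and 60 min, all of which overlapped, and ended with starved Y721F (6.53). For Ccl12 the means of grown WT (9.91 ± 1.56, SD, n = 2), grown 3ABY721 (7.80 ± 0.15) and grown 3AB (7.15 ± 0.09) led, without overlap among themselves. Array I of WT at 20 min (8.63), WT at 60 min (8.27) and Y721F at 60 min (7.92) was still above both grown 3ABY721 arrays. The Ccl12 groups at 0 min were at the end, 4.70 in WT and 4.54 in Y721F. For Ccl3 the highest group was WT at 20 min (12.95 ± 0.19), which overlapped with grown 3ABY721 (12.86 ± 0.25), and starved Y721F (11.46) was the lowest. Ccl4 ran from 9.89 in grown WT to 6.56 in Y721F at 0 min, where both arrays agreed within 0.01. For Ccl6 the means of all Y721F groups (8.46 to 9.76) were below those of every group of the other lines (10.07 to 11.82), a separation that the means of the other 6 genes did not show. For Ccl9 the group means ran from 11.76 to 12.38. The 2 experiments were fitted apart, and their starved groups of 1 line are only set side by side: Ccl12 read 4.72 and 4.68 in WT at 0 min and 6.36 and 6.82 in starved WT.

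Likeness of pattern was measured as Pearson r over the 16 group means, which share arrays, lines and normalization, and is given as a description. Among 6228 genes whose group means ranged over at least 1, the genes most like Ccl2 were Ccl7 (r = 0.97), the phosphate transporter Slc20a1 (0.893) and the mitochondrial carrier Slc25a33 (0.892). Those most like Ccl7 were Ccl2 (0.97), Slc20a1 (0.903) and the translation termination factor Gspt1 (0.866). Ccl3 was most like Ccl2 (0.889), Ccl7 (0.853) and Klf6 (0.846), a Krüppel-like transcription factor. Ccl4 was nearest to Cip2a (0.944), Hspa13 (0.904) and Mtfr2 (0.899), and Ccl12 to Txndc11 (0.845), the CXC chemokine gene Cxcl3 (0.827) and L3mbtl2 (0.819). Ccl6 was nearest to Lrrc25 (0.976), Abcc8 (0.962) and Slfn2 (0.951), and Ccl9 to the kinase gene Ikbke (0.935), Ncbp2 (0.926) and the caspase gene Casp1 (0.915). Among the members, Ccl6 and Ccl9 had r = 0.903 with each other, against -0.05 and -0.04 with Ccl2. The group means of Ccl9 itself ranged over less than 1, from 11.76 to 12.38, so its r values rest on small differences.

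**Figure D4:**
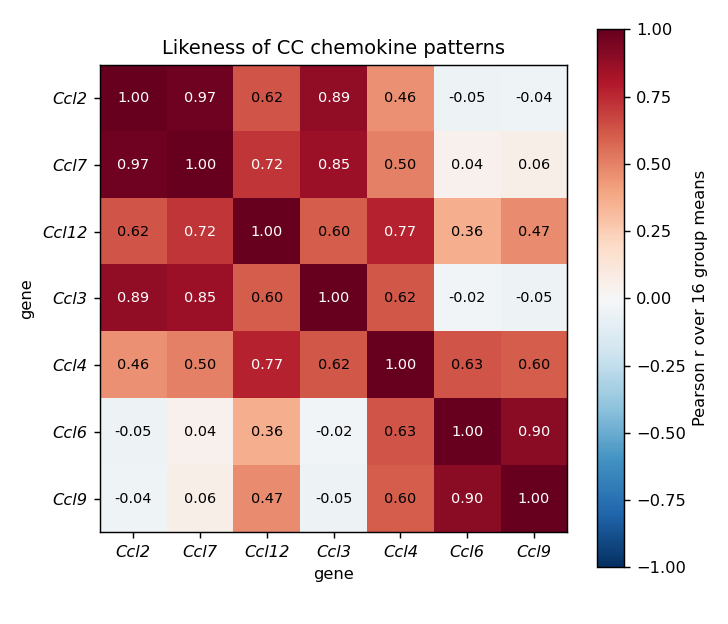
Pearson r of log2 signal over the 16 group means for each pair of the 7 CC chemokine genes, on a colour scale from -1 (blue) to 1 (red) with the value in each cell. Ccl2, Ccl7 and Ccl3 form a block with r of 0.85 or more, and Ccl6 and Ccl9 stand together at 0.90.

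Of 14 other CC chemokine genes listed, 12 were measured. By limma 0 of them were called in the 6 comparisons of a time with CSF-1 against 0 min, and 0 to 2 per comparison had an unadjusted p under 0.05. With the number as a block Ccl22, whose product attracts T cells through CCR4, rose in WT at 60 min (1.06, adjusted p = 0.0105) and at 180 min (1.67, adjusted p = 0.000802). In the steady-state experiment Ccl24, an eosinophil chemoattractant gene, fell in grown against starved Y721F (-1.12, adjusted p = 0.00573), and in starved cells it was higher in Y721F than in WT (1.14, adjusted p = 0.00233). Ccl5, a T cell and monocyte chemoattractant gene, was lower in starved Y721F than in starved WT (-1.74, adjusted p = 0.000516). Over the 12 genes the median difference in these comparisons lay between -0.02 and 0.16 in the time course, and was 0.01 in grown against starved Y721F and 0.12 in starved Y721F against WT.

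Of the receptors, 14 of 15 listed were measured, and limma called 0 at any time against 0 min (0 to 3 per comparison at an unadjusted p under 0.05). With the number as a block, Ccr1 rose in WT at 60 min (1.43, adjusted p = 0.0186) and 180 min (1.91, adjusted p = 0.00273) and in Y721F at 180 min (1.17, adjusted p = 0.03). In the same fit Ccr2 fell in WT at 60 min (-1.10, adjusted p = 0.0293) and 180 min (-1.22, adjusted p = 0.00921), as did Ccrl2 (-0.91, adjusted p = 0.0408, and -1.10, adjusted p = 0.00939). Grown against starved, Ccr2, the receptor for the Ccl2, Ccl7 and Ccl12 products, fell in WT (-1.21, adjusted p = 0.00514) and in Y721F (-0.92, adjusted p = 0.0215). Ccrl2, which encodes an atypical chemoattractant receptor, fell in WT (-1.46, adjusted p = 0.0483). Ccr1, the receptor for the Ccl6 and Ccl9 products, rose in Y721F (2.24, adjusted p = 0.00555). In starved cells Ccr1 (-2.45, adjusted p = 0.0013) and Ccrl2 (-1.69, adjusted p = 0.0126) were lower in Y721F than in WT. Ccr2 was higher in grown 3AB than in grown 3ABY721 (1.11, adjusted p = 0.0177). The Ccr2 signal was low: its group means ran from 4.36 in grown Y721F to 6.31 in starved 3AB, where array medians were 5.97 to 6.22. The means of grown WT (4.61) and grown Y721F lay near the 20th percentile of signal (4.46).

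Of 20 listed regulators of inflammatory chemokine genes, transcription factors and mRNA decay factors, 19 were measured. At 20 min against 0 min 5 rose in WT: the AP-1 subunit Fos by 3.74, the phosphatase gene Dusp1 by 2.85, Zfp36, which encodes an mRNA-destabilizing protein, by 2.04, the NF-κB cofactor Nfkbiz by 1.99 and Jun by 1.52 (adjusted p = 0.00097 for Fos). In Y721F 3 rose at that time, Fos by 2.97, Zfp36 by 2.12 and Jun by 1.56. Of all genes, 0.155% rose at 20 min in WT and 0.0752% in Y721F. With the number as a block the counts at 20 min were 6 in WT and 5 in Y721F, where 0.406% and 0.196% of all genes rose. From 20 to 60 min Fos fell by 3.46 in WT and by 2.97 in Y721F, and Nfkbiz by 2.0 in WT, while Ccl2 measured -0.04 in WT and -0.22 in Y721F. In the steady state few were called: Nfkb2 fell in grown WT (-0.64), Bcl3 in 3ABY721 (-0.85) and 3AB (-0.65), and Irf1 in 3ABY721 (-0.90). In starved Y721F against WT Nfkbiz (-1.04), Rela (-0.72) and Cebpb (-0.65) were lower, and Cebpb also grown (-0.64). The median over the 19 was 0.22 in WT and 0.15 in Y721F at 20 min, and -0.42 in starved Y721F against WT, against 0, 0.02 and 0 over all genes.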

How the data were processed

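Trizol-extracted RNA of the 4 lines was labelled with biotin and hybridized in 1 colour to 32 arrays of the type Affymetrix Mouse Gene 1.0 ST, per the labels. Preparations had an RNA integrity number above 9.5, per the series' design text, which also names limma and a cutoff of fold above 1.5 with p under 0.05. The authors deposited log2 signals for 35556 probe sets; their range shows the log2 scale. How background was corrected, signals summarized and arrays normalized, and which genome build was used, is not given in the sources used here. Of these, 12146 have no entry in the array's annotation and 23410 do, of which 21789 name 1 gene and were used and 1621 name several; 19938 genes remained, with 1 probe set each.

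For each experiment, 1 model over its 16 arrays and 8 groups was fitted in R 4.3.3 with limma 3.58.1 by lmFit and eBayes (8 residual degrees of freedom, prior 3.48 for the time course and 6.33 for the steady state). Benjamini-Hochberg adjustment was over 19938 genes within each of 26 comparisons, 2 of them (the contrast of the pairs of lines) chosen after seeing the data. The scripts were tested on simulated data. The number of arrays, 2 per group, limits the precision, and p-values measure only the spread between these arrays. Same-numbered arrays within a line of the time course deviated together (correlations across genes of 0.487 to 0.734 over 6 pairs in WT and 0.353 to 0.648 over 6 pairs in Y721F), so the number was also used there as a block. Between lines the correlations were -0.063 to 0.29, and in the steady state -0.328 to 0.283. The block is therefore only an alternative for the lines at 0 min and for the steady state. Among the members, array I was above array II in 8 of 8 time course groups for Ccl2, Ccl6 and Ccl7. It was so in 7 for Ccl4 and Ccl12, in 5 for Ccl3 and in 3 for Ccl9. Whether the number has an effect shared by both lines was not tested.

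The 7 genes and the lists of other chemokines, receptors, regulators and markers were chosen with earlier results of these data known. The named genes were the members whatever their value, the 3 genes most alike to each, and up to 4 called genes per list and comparison with the largest difference. Jun in WT at 20 min, the fifth called regulator, and Adgre1 between the pairs of lines, the fifth called macrophage marker, were named after their values were seen. The alternatives were the replicate block, quantile normalization, a filter on low signal, the mean of all probe sets, the design text's cutoff, 1 fit over 32 arrays and leaving out each array. Motifs were sought in RefSeq promoters (GRCm38.p6). Ccl21a, Ccl27a and Nfkb1, and some other listed genes, were not analysed here.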

Additional observations from a re-analysis of the deposited data

Results flagged for a closer look

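A gene is given here where the same contrast differed between lines by a test of the difference itself (limma, Benjamini-Hochberg adjusted over 19938 genes, 2 arrays per group). The growth effect of Ccl12, grown minus starved, differed by -3.79 log2 units in Y721F minus WT (adjusted p = 0.0442), and this call was kept in 3 of 8 fits that leave out 1 array and in 2 of 5 other settings.

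The difference Y721F minus WT departed from the difference 3AB minus 3ABY721, in a contrast chosen after seeing the data. In cells grown in CSF-1 it did so for Ccl6 by -2.47, for Ccl7 by -2.84 and for Ccl12 by -4.18. In starved cells it did so for Ccl2 by -2.74, for Ccl4 by -2.0, for Ccl6 by -2.51 and for Ccl7 by -2.04. In each of these the Y721F arrays were below the WT arrays, and 3AB against 3ABY721 was not called. Receptor and line cannot be told apart here.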

How the results depend on the processing

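Of 156 counts of called members recomputed under the 6 alternatives that keep every array, 122 stayed within 1.5 times the main count and 34 moved. The 122 include the counts that were 0 and stayed 0, so they overstate how stable the calls are. Among 1834 member differences recomputed, with arrays left out included, 0 of the called ones changed sign. In 1 fit over all 32 arrays, which pools the spread of both experiments, the count was 2 at each of 20, 60 and 180 min in WT, where only Ccl2 was called before, and 1 at 20 min in Y721F (Ccl2, adjusted p = 0.00137). Grown against starved the same fit gave 2 in Y721F in place of 5 and 1 in 3AB in place of 2, and for the growth effect of Y721F minus WT 0. For the contrast of the 2 pairs of lines it gave 1 grown and 2 starved. With the replicate block the counts were 4, 2 and 2 in WT at 20, 60 and 180 min, 2 at each time in Y721F, 1 for Y721F against WT at 0 min (Ccl6, adjusted p = 0.0238), 5 grown against starved in WT (Ccl4 and Ccl6 added, adjusted p = 0.0136 and 0.0333), 4 in 3ABY721 (Ccl3 and Ccl4 added, 0.0373 and 0.0183), and 0 for the growth effect of Y721F minus WT (Ccl12, adjusted p = 0.0975). The cutoff of the design text, which is not adjusted over genes, gave 4, 3 and 3 in WT and 3, 3 and 3 in Y721F at the 3 times. It gave 1 for Y721F against WT at 0 min, 5 grown against starved in WT, 5 in 3ABY721, 1 for 3AB against 3ABY721 grown and 2 for the growth effect of Y721F minus WT. With the filter on low signal the count was 2 in WT at 180 min and 1 in Y721F at 20 min (Ccl2, adjusted p = 0.0474). With the mean of all probe sets it was 0 in Y721F at 60 min (Ccl2, adjusted p = 0.0504), and after quantile normalization 0 for the growth effect of Y721F minus WT (Ccl12, adjusted p = 0.0636). Apart from the tests and samples that each alternative changes by its construction, the cause was not tested.

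Leaving out 1 array in turn gave 0 to 1 called members in WT at 20 min, 0 to 2 at 60 min and 0 to 1 at 180 min. In Y721F it gave 0 at 20 min, 0 to 1 at 60 min and 0 at 180 min, where Ccl2 lost its call each time. Grown against starved it gave 3 to 4 in WT, 2 to 3 in Y721F, 2 in 3ABY721 and 1 to 2 in 3AB. Y721F against WT gave 5 to 6 grown and 4 starved, 3AB against 3ABY721 0 in both states, the growth effect of Y721F minus WT 0 to 2 and that of 3AB minus 3ABY721 0. The contrast of the pairs gave 3 to 4 grown and 3 to 4 starved. With 2 arrays per group, a group of 1 array is assumed to vary like the others.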
